A study of Mus musculus with 12 samples.

Results

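The motile cilium genes are a set of 42 named mouse genes that encode the beating cilium of airway cells and the regulators that switch it on. They were taken by name from a list of cilium and ciliated-cell genes and looked up in the expression table of 12 mouse lung cancer libraries. All 42 were found among the 19212 genes of that table. A motile cilium is built around an axoneme, a ring of paired microtubules with a central pair inside it. Dynein arms on the ring supply the force, radial spokes and the nexin-dynein regulatory complex coordinate it, and assembly factors load the arms before they enter the cilium. In the lung this machinery belongs to the multiciliated cells of the bronchi and bronchioles, where Foxj1 and RFX transcription factors drive its genes. Lewis lung carcinoma (LLC) cells, a mouse lung tumour line that grows in culture, are not known for beating cilia.

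The study built lung cancer models in mice from LLC cells, orthotopic ones (grown in the lung) for the knockdown experiment, and compared 4 groups of 3 libraries of poly(A) RNA, all labelled with the tissue lung cancer. In the knockdown experiment the LLC cells had received a negative control lentivirus (NC, genotype WT) or a lentivirus against Otub1, a deubiquitinase gene (OTUB1_KD, genotype OTUB1 knockdown). In the treatment experiment animals, with libraries of genotype WT, received physiological saline (Blank) or SFD@M, an agent that the labels do not describe further. The titles of the Blank libraries carry codes that begin with KD, while their genotype is given as WT. The labels give no strain, age, sex, dose or time, and do not say whether OTUB1_KD is a clone or a pool of cells, or how tumour was separated from the lung around it. Separate animals or cultures are not named for the libraries of a group, and every p-value here is therefore a statement about the scatter of these libraries, part of which could be technical.

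Depth was similar throughout, from 16062805 to 18028815 estimated counts per library, which makes 3 counts about 0.166 to 0.187 CPM (counts scaled to the library total). Otub1 itself was at 73.3 ± 3.24 CPM in NC and 59.7 ± 11.0 in the libraries labelled OTUB1_KD (mean ± SD, n = 3), a log2 difference of -0.36 ± 0.18 (SE) that did not pass the threshold (edgeR quasi-likelihood test, Benjamini-Hochberg adjusted p = 0.112). In the treatment experiment Otub1 was at 74.97 ± 2.66 CPM in Blank and 47.0 ± 1.34 in SFD@M, lower by -0.71 ± 0.05 (adjusted p = 5.8e-06). The OTUB1_KD and SFD@M libraries also held far more RNA of normal lung markers than NC and Blank, the control groups. All 5 club cell markers, all 5 alveolar type 2 markers and all 4 leukocyte markers were called higher in both experiments. The shares of all genes tested that were called higher were 39.9% in OTUB1_KD and 49.5% in SFD@M. The club cell markers, the secretory cells beside ciliated cells, summed to 12938 to 39270 CPM in those 6 libraries and to at most 1.07 CPM in the others. The leukocyte markers summed to 344 to 467 CPM against at most 1.18, and the 3 markers of dividing cells to 19.96 to 631 CPM against 2059 to 2192. In NC and Blank, Scgb3a1 and Scgb3a2 of the club cell list were at 0 counts in all 6 libraries. How far this makeup of the libraries takes part in the results on cilium genes was not tested. In bulk tissue, fewer cells of a type and less RNA per cell cannot be told apart.

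Many promoters of the members hold a sequence that the choice of members did not use. RFX factors bind the X-box, an imperfect inverted repeat whose arm reads GTTGCC, or GGCAAC on the other strand. Of the 42 members 37 had an entry in the RefSeq promoter table of GRCm38.p6, with 42 windows of 300 bases (250 before and 50 after a start site), since some genes have several starts. GTTGCC was found on either strand in 23 of these 42 windows, or 54.8%, against 12.7% of the 18868 windows of all genes of the table. By gene the shares were 22 of 37, or 59.5%, against 14.6%. The arm lay within 50 bases of the start in 15 of the 42 windows, or 35.7%, against 4.83% of all windows.

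Other motifs were found in fewer member windows. The paired X-box, GTTNCC and GGNAAC with 2 bases between them, was present in 1 member window, that of Ak9, and in 0.466% of all windows. The forkhead core TGTTTAC, which factors of the Foxj1 family can bind, was present in 3 member windows, or 7.14%, against 2.71%. CCAAT stood in 35.7% of member windows and 37.8% of all windows, and the E2F core TTCCCGC in 0 of 42 against 6.67%. A match describes letters in a window and is no evidence of binding.

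The 8 windows below show where the X-box letters sit. Each runs 5′ to 3′ along the gene from 160 bases before to 10 bases after its start site, on RefSeq GRCm38.p6, and capitals mark each X-box arm or, in Ak9, the pair.
Ak9 (chr10:41303774-41303943, plus strand): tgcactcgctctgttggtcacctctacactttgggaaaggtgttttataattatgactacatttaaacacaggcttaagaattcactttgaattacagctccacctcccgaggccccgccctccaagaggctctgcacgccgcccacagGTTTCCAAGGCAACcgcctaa
Tekt1 (chr11:72361873-72362042, minus strand): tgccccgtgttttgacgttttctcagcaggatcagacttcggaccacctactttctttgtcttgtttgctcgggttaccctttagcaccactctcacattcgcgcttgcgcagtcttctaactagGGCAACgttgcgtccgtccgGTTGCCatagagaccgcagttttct
Cfap44 (chr16:44394639-44394808, plus strand): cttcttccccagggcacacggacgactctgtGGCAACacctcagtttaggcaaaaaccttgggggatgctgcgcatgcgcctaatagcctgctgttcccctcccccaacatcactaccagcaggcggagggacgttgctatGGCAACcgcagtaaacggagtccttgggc
Lrrc23 (chr6:124779718-124779887, minus strand): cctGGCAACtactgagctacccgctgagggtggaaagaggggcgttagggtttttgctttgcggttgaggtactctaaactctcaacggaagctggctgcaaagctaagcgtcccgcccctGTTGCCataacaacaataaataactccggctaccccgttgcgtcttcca
Hydin (chr8:110266817-110266986, plus strand): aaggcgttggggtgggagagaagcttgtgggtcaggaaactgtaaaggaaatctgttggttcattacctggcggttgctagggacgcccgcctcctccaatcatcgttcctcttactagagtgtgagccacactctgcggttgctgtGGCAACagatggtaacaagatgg
Drc1 (chr5:30281233-30281402, plus strand): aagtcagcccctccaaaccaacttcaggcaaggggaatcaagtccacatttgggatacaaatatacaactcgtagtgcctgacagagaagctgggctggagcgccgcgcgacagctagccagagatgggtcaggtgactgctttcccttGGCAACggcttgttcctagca
Dnai2 (chr11:114727259-114727428, plus strand): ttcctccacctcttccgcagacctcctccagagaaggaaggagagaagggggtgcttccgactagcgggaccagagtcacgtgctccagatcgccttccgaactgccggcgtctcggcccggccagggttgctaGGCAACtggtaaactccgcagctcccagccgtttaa
Ccdc113 (chr8:95533940-95534109, plus strand): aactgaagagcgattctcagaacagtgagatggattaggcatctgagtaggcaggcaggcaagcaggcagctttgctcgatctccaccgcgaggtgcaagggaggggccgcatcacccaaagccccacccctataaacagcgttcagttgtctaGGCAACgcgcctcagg
Ak9 carries the pair from position -11, counted from the start site. In Hydin the arm begins at -13, in Drc1 at -11 and in Ccdc113 at -6, each within a few bases of the start. Cfap44 and Tekt1 carry arms at -19 and -15 and a further one upstream, at -129 and -35. In Lrrc23 the arms lie at -157 and -39, and in Dnai2 there is one at -26.

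The 42 members together were low in NC and Blank and high in OTUB1_KD and SFD@M. Their summed level was 57.4, 60.0 and 60.6 CPM in the NC libraries and 45.6, 43.0 and 46.0 in Blank. It was 862, 1850 and 781 CPM in OTUB1_KD and 1263, 1376 and 1984 in SFD@M, so that no library of either group came near the controls. The transcription regulators, chiefly Rfx2 and Rfx3, made up 45.6% to 60.2% of the members' sum in the control tumours and between 7.46% and 8.48% of it elsewhere. In the controls 8 to 11 members reached 1 CPM in a library, and 10 to 18 had no count at all. In each OTUB1_KD and SFD@M library 41 or 42 members reached 1 CPM and none was at 0.

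**Figure D1:**
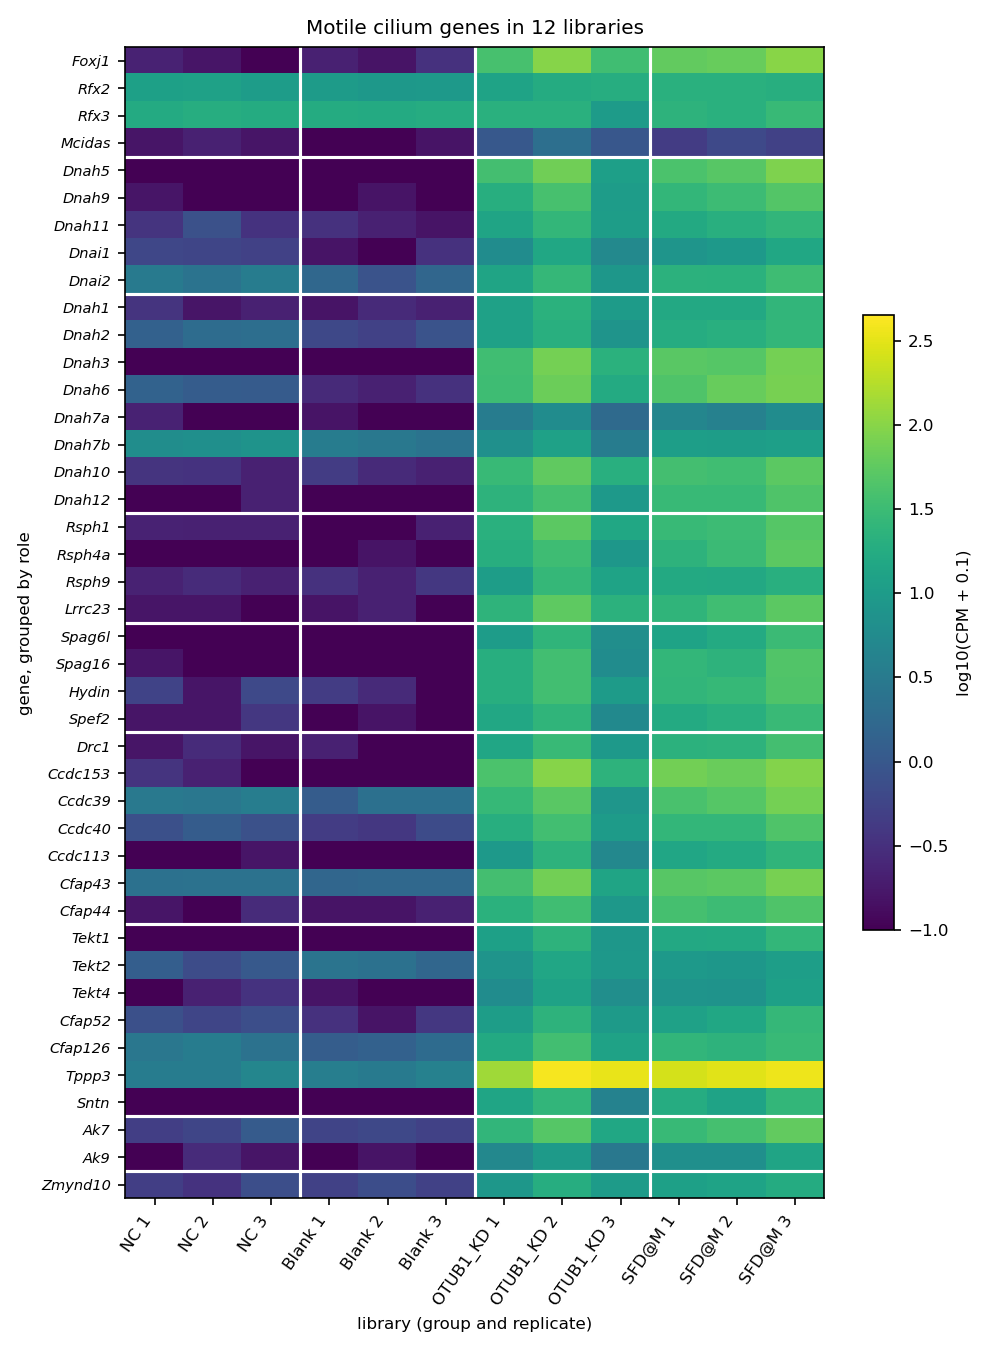
Level of each of the 42 motile cilium genes (rows, grouped by role from transcription regulators at the top to assembly at the bottom) in the 12 libraries (columns, 3 per group). Colour gives log10(CPM + 0.1). Most rows are dark in the 6 NC and Blank libraries and bright in the 6 others, with Rfx2, Rfx3 and Dnah7b as the most even rows and Tppp3 as the brightest.

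In the knockdown experiment 39 of the 42 members were called higher in OTUB1_KD than in NC, none lower, and 3 did not pass the test (edgeR quasi-likelihood test, adjusted p below 0.05). Over all 14785 genes tested 39.9% were called higher and 25.8% lower. The 3 that did not pass were Rfx2, Rfx3 and Dnah7b. The fit of OTUB1_KD against NC detected only 18.18% of 2-fold changes planted in simulated data. Not passing therefore does not show equal levels. In the treatment experiment all 41 members that could be tested were called higher in SFD@M than in Blank, against 49.5% of 14824 genes higher and 38.7% lower. Mcidas had too few counts there to be tested. The libraries did not overlap for 40 of the 42 members in the knockdown experiment and for all 42 in the treatment experiment, against 43.9% and 50.3% of the genes tested in the higher direction.

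Many of these members entered the tests only through the group in which they were high. In NC 6 members had no count in any library and 7 had 1 to 3 counts. In Blank 9 had none and 10 had 1 to 3. Of the 29 members with more counts in NC 26 were called higher, and of the 23 tested members with more counts in Blank all 23 were. The median log2 difference of all members tested was 6.19 in the knockdown experiment and 7.51 in the treatment experiment. Over the 29 and 23 members with more than 3 counts in the control group it was 5.04 and 6.28. Setting members at 0 counts to their bound could not move the medians of all members tested. Every bound, at least 214-fold and 309-fold, already lay above them. The medians of all genes tested were 0.16 and 0.23.

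Foxj1, the master regulator of motile cilia, was almost absent from the controls. Its level was 0.125, 0.0594 and 0 CPM in NC and 0.116, 0.0580 and 0.233 in Blank, 3 and 7 counts in all. In OTUB1_KD it was 38.1, 97.9 and 33.9 CPM and in SFD@M 58.6, 63.4 and 102. The groups did not overlap in either experiment. Set against those 3 counts, the ratio of OTUB1_KD to NC was 891, with a 95% counting interval of 305 to 4323. SFD@M was higher than Blank by 8.99 ± 0.43 (log2, SE; adjusted p = 6.00e-07).

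Rfx2 and Rfx3, which act on cilium genes in many cell types, were present in every library. Rfx2 stood at 11.6, 12.2 and 10.3 CPM in NC, 13.2, 17.6 and 18.7 in OTUB1_KD, 9.88, 8.64 and 9.15 in Blank and 21.0, 20.5 and 19.6 in SFD@M. Its libraries did not overlap in either experiment, yet the log2 difference of 0.47 ± 0.21 in the knockdown experiment did not pass (adjusted p = 0.0792), while 1.10 ± 0.09 in the treatment experiment did (adjusted p = 1.16e-05). Without OTUB1_KD 1 the knockdown difference was 0.60 and passed (adjusted p = 0.0118). Rfx3 stood at 17.0, 18.8 and 17.2 CPM in NC, 20.9, 20.5 and 9.82 in OTUB1_KD, 17.3, 17.2 and 18.02 in Blank and 22.5, 20.8 and 28.8 in SFD@M. OTUB1_KD 3 lay below every NC library and the other OTUB1_KD libraries above them. The log2 difference was -0.13 ± 0.29 in the knockdown experiment (adjusted p = 0.718; 0.14 without OTUB1_KD 3) and 0.42 ± 0.13 in the treatment experiment (adjusted p = 0.0144). That last call was lost without Blank 1 or Blank 2, with adjusted p = 0.0513 and 0.0508.

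Mcidas encodes multicilin, a coregulator that starts the multiciliated cell programme. Its counts were few everywhere. At 0.0623, 0.119 and 0.0593 CPM in NC it had 4 counts, and at 0.915, 2.02 and 0.887 CPM in OTUB1_KD it had 67, a log2 difference of 3.80 ± 0.60 (adjusted p = 0.00154). In SFD@M it had 22 counts, at 0.352, 0.530 and 0.412 CPM, and in Blank 1 count, for a ratio of 21.7 with a counting interval of 3.51 to 895.

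The outer dynein arms set the beat frequency. All 5 outer arm members were called higher in both experiments. Dnai2, an intermediate chain and the highest of them by TPM (a level per transcript length) summed over the 12 libraries, was at 2.99, 2.32 and 3.26 CPM in NC and 13.5, 27.2 and 8.43 in OTUB1_KD. It was at 1.57, 0.754 and 1.52 CPM in Blank and 22.2, 21.0 and 32.4 in SFD@M. No library of one group reached the other in either experiment, and the log2 differences were 2.44 ± 0.45 (adjusted p = 0.00312) and 4.26 ± 0.29 (adjusted p = 3.37e-06). Dnai1, the partner intermediate chain, was higher by 4.12 ± 0.53 and 6.66 ± 0.57.

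The outer arm heavy chains, the motors themselves, were nearly silent in the controls. Dnah5 had no count in any of the 6 NC and Blank libraries and 36.5, 71.8 and 11.4 CPM in OTUB1_KD and 40.7, 50.3 and 87.7 in SFD@M. Against a floor of 3 counts over the control group it was at least 626-fold higher in OTUB1_KD and at least 998-fold higher in SFD@M. Dnah9 had 1 count in each control group against 22.5 ± 14.3 and 34.9 ± 11.3 CPM. Dnah11, at 0.400 ± 0.271 CPM in NC and 0.136 ± 0.0887 in Blank, was higher by 5.28 ± 0.57 and 7.14 ± 0.35.

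The inner dynein arms shape the bend of the cilium. Of the 8 inner arm members 7 were called higher in OTUB1_KD and all 8 in SFD@M. Dnah6, a single-headed inner arm chain with the highest TPM of the role when summed over the 12 libraries, was at 1.31, 1.07 and 1.01 CPM in NC, 33.2, 68.3 and 16.8 in OTUB1_KD, 0.174, 0.116 and 0.233 in Blank and 44.3, 64.0 and 80.2 in SFD@M. It was higher by 5.04 ± 0.57 (adjusted p = 0.000345) and 8.40 ± 0.39 (adjusted p = 5.18e-07), with wide gaps between the groups. Dnah3 had no count in any control library and 43.8 ± 28.8 CPM in OTUB1_KD and 58.9 ± 15.2 in SFD@M, at least 688-fold and at least 988-fold higher. Dnah12 had 2 counts in NC and none in Blank, and 23.2 ± 14.2 and 34.1 ± 8.91 CPM in the other groups.

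Dnah2 and Dnah10 form the double-headed inner arm. Dnah2 was at 1.25, 1.84 and 1.96 CPM in NC, 12.2, 20.1 and 7.65 in OTUB1_KD, 0.523, 0.406 and 0.758 in Blank and 17.97, 19.7 and 25.6 in SFD@M. Its groups stood apart in both experiments, by 2.91 ± 0.42 (adjusted p = 0.00101) and 5.18 ± 0.25 (adjusted p = 5.05e-07). Dnah10 differed by 7.32 ± 0.56 and 7.51 ± 0.35, and Dnah1 by 6.54 ± 0.54 and 7.24 ± 0.38.

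Dnah7a and Dnah7b are similar copies on chromosome 1 whose counts are uncertain. Of the 100-base windows of their transcripts 19.96% and 23.5% occur identically in other genes, mostly in Dnah7c, whereas 39 members share no such window with any other gene and Dnah11 shares 0.1%. Dnah7b was at 6.04, 6.54 and 7.47 CPM in NC, 6.69, 12.1 and 3.27 in OTUB1_KD, 3.25, 2.78 and 2.33 in Blank and 11.2, 10.7 and 11.4 in SFD@M. OTUB1_KD spread on both sides of NC, and the log2 difference was 0.06 ± 0.44 (adjusted p = 0.912), with -0.49 when OTUB1_KD 2 was left out. SFD@M was higher than Blank by 1.95 ± 0.16 (adjusted p = 8.84e-06). Dnah7a, with 2 counts in NC and 1 in Blank, reached 3.62 ± 2.08 and 4.80 ± 0.992 CPM.

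Radial spokes carry signals from the central pair to the dynein arms, and their 4 members were called higher in both experiments. Rsph1, the highest of them by TPM summed over the 12 libraries, was at 0.125, 0.119 and 0.119 CPM in NC, 20.9, 52.8 and 14.8 in OTUB1_KD, 0, 0 and 0.117 in Blank and 28.6, 32.2 and 48.0 in SFD@M. It was higher by 7.77 ± 0.70 in OTUB1_KD (adjusted p = 0.000136), and the ratio of SFD@M to the 2 counts of Blank was 912, with a counting interval of 252 to 7532. Rsph4a, a spoke head gene, had no count in NC and was at least 314-fold higher in OTUB1_KD. Rsph9, a further head gene, was higher by 6.75 ± 0.54 and 6.28 ± 0.25. Lrrc23, a spoke gene whose promoter is printed above, had 2 counts in NC and 3 in Blank against 33.2 ± 18.5 and 37.5 ± 15.1 CPM.

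The central apparatus, the hub of the axoneme, was represented by Spag16, Spag6l, Hydin and Spef2, all called higher in both experiments. Spag16 was at 0.0623, 0 and 0 CPM in NC, 19.2, 34.9 and 5.93 in OTUB1_KD, 0 in all of Blank and 25.9, 23.1 and 45.0 in SFD@M. OTUB1_KD 3 was the lowest of the 6 OTUB1_KD and SFD@M libraries, still far above any control. Spag16 was at least 525-fold higher in SFD@M than in Blank, and against the 1 count of NC the ratio in OTUB1_KD was 941, with an interval of 169 to 37205. Spag6l had no count in either control and was at least 214-fold and at least 337-fold higher. Hydin was higher by 5.88 ± 0.73 and 7.44 ± 0.49, and Spef2 by 6.59 ± 0.82 in the knockdown experiment.

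The nexin-dynein regulatory complex, the molecular rulers and the tether set the spacing and restraint of the arms, and all 7 members were called higher in both experiments. Ccdc153, a regulatory complex gene and ciliated cell marker, was at 0.249, 0.119 and 0 CPM in NC, 40.8, 96.7 and 23.1 in OTUB1_KD, 0 in all of Blank and 75.2, 64.6 and 94.7 in SFD@M. It was the second most abundant member by TPM in both of the latter groups. It was higher by 8.63 ± 0.88 in OTUB1_KD (adjusted p = 0.000225) and at least 1310-fold higher in SFD@M. Ccdc39, a ruler with Ccdc40, was at 2.93, 2.67 and 3.38 CPM in NC, 27.4, 51.7 and 8.26 in OTUB1_KD, 1.05, 2.15 and 2.10 in Blank and 40.5, 48.6 and 76.0 in SFD@M. The groups did not overlap, with differences of 3.20 ± 0.63 (adjusted p = 0.00395) and 4.92 ± 0.34 (adjusted p = 4.66e-06). Ccdc40 differed by 4.61 ± 0.53 and 6.22 ± 0.35.

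Cfap43 and Cfap44 form the tether that holds the inner arm in place. Cfap43 was at 2.18, 2.26 and 2.31 CPM in NC, 35.6, 74.0 and 13.5 in OTUB1_KD, 1.51, 1.62 and 1.63 in Blank and 51.0, 54.1 and 78.4 in SFD@M. The controls were tight and the other groups clear of them, by 4.11 ± 0.61 (adjusted p = 0.00121) and 5.22 ± 0.23 (adjusted p = 3.17e-07). Cfap44, with 4 counts in each control group, differed by 7.85 ± 0.85 and 8.76 ± 0.27, and Drc1, a core subunit of the regulatory complex, by 7.27 ± 0.66 in the knockdown experiment. Ccdc113 had 1 count in NC and none in Blank against 12.3 ± 9.53 and 18.5 ± 5.09 CPM.

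Tppp3, a tubulin-binding protein of ciliated cells, was the most abundant member by TPM in OTUB1_KD and SFD@M. It was at 3.36, 3.27 and 4.68 CPM in NC, 136, 400 and 341 in OTUB1_KD, 3.54, 3.13 and 3.91 in Blank and 262, 310 and 362 in SFD@M. The groups were far apart, by 6.21 ± 0.49 (adjusted p = 8.44e-05) and 6.42 ± 0.16 (adjusted p = 3.08e-08). Its mean of 472 TPM in OTUB1_KD and 494 TPM in SFD@M compares with 107 and 156 TPM for Ccdc153, the next member.

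Tektins are filaments inside the paired microtubules. Tekt2 was at 1.12, 0.594 and 0.948 CPM in NC, 7.55, 14.5 and 8.71 in OTUB1_KD, 2.44, 2.20 and 1.52 in Blank and 9.39, 8.47 and 11.0 in SFD@M. It was higher by 3.45 ± 0.40 (adjusted p = 0.000381) and 2.18 ± 0.21 (adjusted p = 2.67e-05), with no overlap in either experiment. Tekt1 had no count in any control library and was at least 226-fold higher in OTUB1_KD and at least 322-fold higher in SFD@M. Tekt4 differed by 5.93 ± 0.72 in the knockdown experiment, and had 1 count in Blank against 8.96 ± 2.49 CPM in SFD@M.

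Cfap126, also called Flattop and needed to place basal bodies, was at 2.68, 3.33 and 2.25 CPM in NC, 16.2, 34.7 and 12.4 in OTUB1_KD, 1.10, 1.28 and 1.81 in Blank and 24.8, 22.8 and 28.6 in SFD@M. The libraries of the groups stood clear of each other, by 2.86 ± 0.43 (adjusted p = 0.00123) and 4.14 ± 0.19 (adjusted p = 3.55e-07). Cfap52, a protein inside the microtubule doublet, differed by 4.47 ± 0.45 and 6.46 ± 0.52. Sntn, which encodes sentan of the ciliary tip, had no count in the controls and was at least 227-fold higher in OTUB1_KD and at least 318-fold higher in SFD@M.

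Ak7, an adenylate kinase that balances nucleotides in the cilium, was at 0.374, 0.475 and 1.01 CPM in NC, 25.4, 48.8 and 15.0 in OTUB1_KD, 0.465, 0.522 and 0.408 in Blank and 28.7, 36.8 and 58.7 in SFD@M. The lowest treated or knockdown library was still more than any control, and the differences were 5.49 ± 0.59 (adjusted p = 0.000289) and 6.42 ± 0.39 (adjusted p = 2.28e-06). Ak9, with the paired X-box, differed by 5.97 ± 0.84 in the knockdown experiment, and had 1 count in Blank against 8.73 ± 3.92 CPM in SFD@M. Zmynd10, which helps assemble dynein arms in the cytoplasm, was at 0.374, 0.238 and 0.652 CPM in NC, 8.40, 18.5 and 10.0 in OTUB1_KD, 0.407, 0.638 and 0.408 in Blank and 11.6, 13.1 and 17.6 in SFD@M. It was higher in both experiments by nearly the same amount, 4.77 ± 0.50 (adjusted p = 0.000262) and 4.81 ± 0.27 (adjusted p = 1.21e-06).

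Other genes of the ciliated cell were mostly called higher, where 39.9% of all genes tested were called higher in OTUB1_KD and 49.5% in SFD@M. The shares called lower were 25.8% and 38.7%. Of 49 further axoneme genes 31 of 45 tested were called higher and 2 lower in OTUB1_KD, and 39 of 47 higher and 2 lower in SFD@M. Of 24 genes typical of ciliated cells 20 of 23 tested were called higher and 1 lower, Tmem231, in OTUB1_KD, and 21 of 23 higher in SFD@M. Cfap53 rose by 4.32 ± 0.20 and Cfap45 by 6.96 ± 0.49 in OTUB1_KD, and Sec14l3, a lipid-binding protein of airway cells, had no count in NC against 12824, 29089 and 19361 counts in OTUB1_KD. The axoneme genes called lower were Mns1 and Dnal4, by -1.10 ± 0.24 and -0.47 ± 0.14 in OTUB1_KD and by -1.34 ± 0.20 and -0.75 ± 0.07 in SFD@M.

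Of 16 dynein assembly and docking genes 11 were called higher and 2 lower in OTUB1_KD, and 12 higher and 2 lower in SFD@M. The shares of all genes tested were 39.9% higher and 25.8% lower in OTUB1_KD, and 49.5% higher and 38.7% lower in SFD@M. Dnaaf1 had 1 count in NC and 373 in OTUB1_KD, and Dnaaf3 rose by 3.77 ± 0.23 in SFD@M. Ccdc114, of the docking complex that anchors outer arms, rose in both, by 3.60 ± 0.38 and 3.01 ± 0.15. Dnaaf2 was lower by -1.28 ± 0.17 and -1.52 ± 0.08, and Spag1 by -0.84 ± 0.26 and -1.17 ± 0.13. Both were abundant in the controls, at 72.6 ± 3.58 and 15.9 ± 1.33 TMM-scaled CPM in NC.

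Genes that cilia of all kinds need were called in both directions. Of 31 intraflagellar transport genes, the cargo system of every cilium, 7 were called higher and 14 lower in OTUB1_KD and 12 higher and 15 lower in SFD@M. Ift20 and Ift172 were higher in both, by 1.32 ± 0.19 and 1.00 ± 0.18 and by 1.54 ± 0.10 and 0.96 ± 0.06. Kifap3, a kinesin subunit, was lower by -2.02 ± 0.25 and -1.67 ± 0.05. Of 36 genes of the primary cilium and the BBSome, a membrane coat, 7 were higher and 11 lower in OTUB1_KD and 15 higher and 15 lower in SFD@M. Over all genes tested 39.9% were called higher and 25.8% lower in OTUB1_KD, and 49.5% higher and 38.7% lower in SFD@M.

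Regulators of the multiciliated state were likewise called in both directions. Of 22 such genes 10 were called higher and 8 lower in OTUB1_KD, and 11 of 21 tested were higher and 9 lower in SFD@M, the higher calls at shares near those of all genes. Gmnc, Myb, Trp73 and Deup1, which act early in multiciliogenesis or in centriole amplification, had no count in any of the 6 control libraries. In OTUB1_KD they had 60, 86 and 20 counts (Gmnc), 176, 327 and 104 (Myb), 114, 236 and 118 (Trp73) and 71, 151 and 55 (Deup1). In SFD@M the counts were 116, 78 and 153, 261, 322 and 467, 164, 184 and 274, and 56, 71 and 98, in the same order. Plk4, a centriole duplication kinase that dividing cells also need, was lower in SFD@M by -4.48 ± 0.12. The markers of dividing cells were all called lower in both experiments, against 25.8% and 38.7% of all genes, and their part in this was not tested.

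Axonemes are also built by sperm cells, and 5 markers of male germ cells were measured. Prm1 was at 0 counts in all 12 libraries, and Tnp2, Acrv1 and Odf1 had at most 2 counts in any library. Dnajb13, which airway cilia share with sperm, had 81 to 202 counts in the OTUB1_KD and SFD@M libraries and at most 2 in the controls, and was called higher in both experiments.

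OTUB1_KD and SFD@M, the groups with high cilium genes, belong to different experiments, so that group and experiment cannot be told apart between them. None of the 42 members was called higher or lower in SFD@M than in OTUB1_KD by the edgeR test, against 0.0134% of 14914 genes called higher and 0% called lower, and DESeq2 called 0 as well. At an unadjusted p below 0.05 there was 1, Mcidas. Its log2 difference was -1.52 ± 0.48 (unadjusted p = 0.0135, adjusted p = 0.155), and every SFD@M library was below every OTUB1_KD library. The estimate was above 0 for 40 members and below 0 for 2, Mcidas and Tekt2, against 7225 and 7689 of all 14914 genes tested. Its median was 0.51 for the members and -0.02 over all genes tested. Since the members largely went up and down together across these libraries, the 40 are not separate results. On levels scaled by TMM factors, edgeR's library scaling, the libraries stood apart for 3 members, higher in SFD@M for Rfx2 and Rfx3 and lower for Mcidas, against 14.1% and 14% of all genes.

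**Figure D2:**
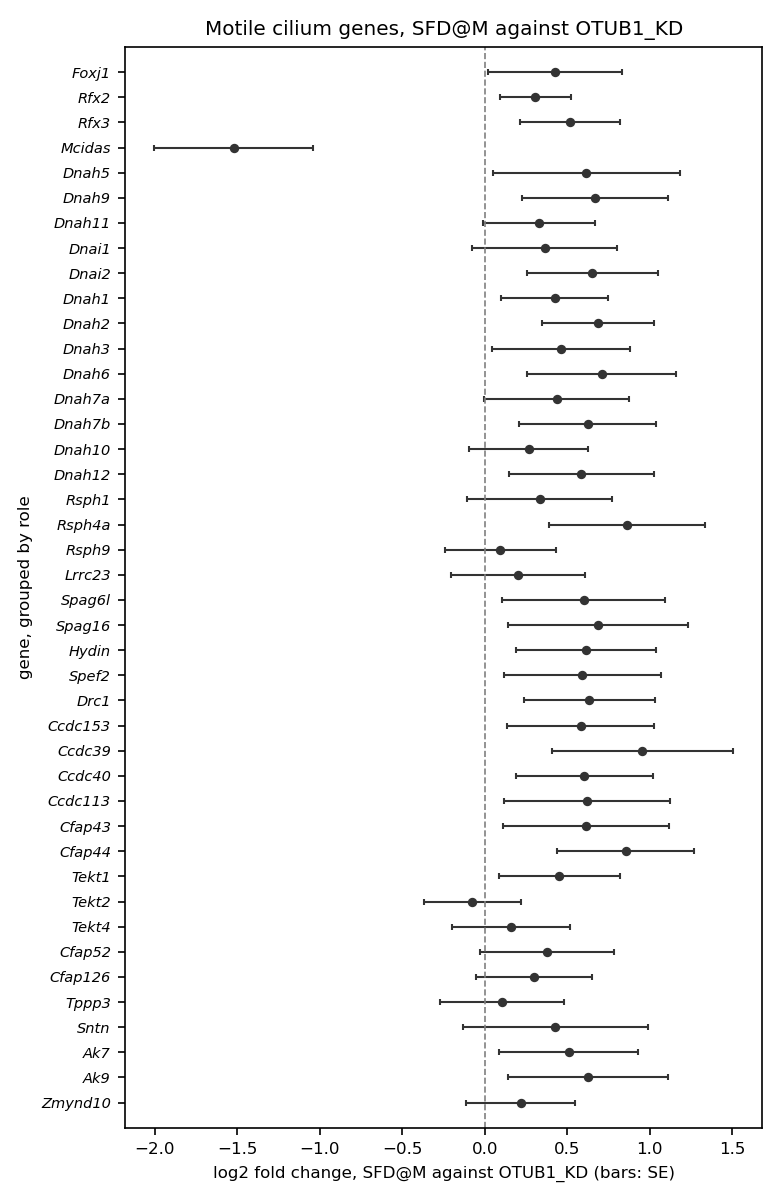
Log2 difference of each motile cilium gene between SFD@M and OTUB1_KD (horizontal axis), with bars for the standard error, in the order of roles (vertical axis). Of the 42 points 40 lie to the right of 0 and none was called, while Mcidas, at -1.52, and Tekt2, at -0.07, lie to the left. The points are not separate results, since the members largely went up and down together across these libraries.

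The OTUB1_KD libraries were widely spread for most members. When 2-fold changes were planted in simulated data, the fit of SFD@M against OTUB1_KD detected only 15.15% of them. The absence of called members between these groups therefore does not show that their levels were alike. Ccdc39, the member with the largest estimate, 0.96 ± 0.55, ran from 8.26 to 51.7 CPM in OTUB1_KD and from 40.5 to 76.0 in SFD@M. Leaving out OTUB1_KD 2, its library with the highest levels for most members, gave 1 member called higher, Ccdc153.

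Within the 6 libraries with high cilium genes the members largely went up and down together. Of 41 members, Mcidas being too low to follow, 35 had their lowest level in OTUB1_KD 3, 28 their highest in SFD@M 3 and 12 their highest in OTUB1_KD 2. From the lowest to the highest of the 6 libraries the members' CPM spanned a median of 3.69 times. Expressed as a share of the members' sum in the same library, the median span was 1.75 times, from 1.22 times for Foxj1 to 3.62 times for Ccdc39. Since Tppp3 takes a large part of that sum, the shares were also taken of the sum without Tppp3. The median span was then 1.56 times, from 1.12 times for Drc1 to 4.14 times for Tppp3 itself. Depth was similar in these libraries but RNA makeup was not. Markers of dividing cells summed to 19.96 to 631 CPM and goblet cell markers to 10.98 to 415 CPM. The spans are therefore a description of these libraries, and the part of makeup in them was not tested.

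Between OTUB1_KD 3 and OTUB1_KD 2 most members fell in a different range of ratios from the alveolar markers. The ratio of CPM, the former over the latter, was 0.295 as the median over the 41 members, from 0.159 for Dnah5 to 1.06 for Rfx2. It was 0.347 for the other axoneme genes, 0.303 for the genes of ciliated cells, 0.586 for club cell markers and 0.0357 for the 3 goblet cell markers. For alveolar type 2 and type 1, endothelial and leukocyte markers the medians were 1.04, 1.39, 1.23 and 1.14, and for fibroblast and mesothelial markers 0.882. Single alveolar markers ran from 0.545 for Rtkn2 to 1.78 for Aqp5, a range that also holds the member Tekt2, at 0.600. The member Tppp3, at 0.853, and Rfx2 stayed close to the alveolar markers, and Tppp3 made up 43.7% of the members' sum in OTUB1_KD 3 against 15.8% and 21.6% in the other OTUB1_KD libraries and 18.2% to 22.5% in SFD@M. The members did not differ from the alveolar markers in this way in every pair of libraries. For OTUB1_KD 1 over OTUB1_KD 2 the median was 0.509 for members. It was 0.499 and 0.415 for alveolar type 2 and type 1, 0.440 for endothelial and 0.891 for leukocyte markers. For SFD@M 1 over SFD@M 3 it was 0.621 for members, and 0.892 and 1.11 for alveolar type 2 and type 1 markers. What sets OTUB1_KD 3 apart was not tested.

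**Figure D3:**
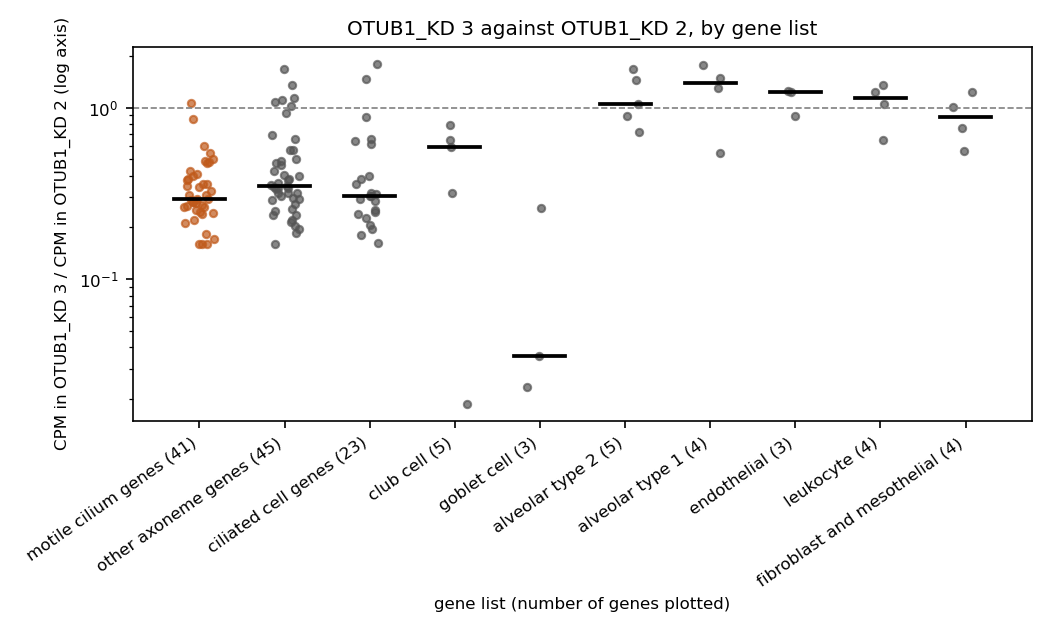
Ratio of CPM in OTUB1_KD 3 to CPM in OTUB1_KD 2 (vertical, log axis) for each gene (points) of the motile cilium genes and of 9 marker lists, with the median as a bar and the number of genes in brackets. The motile cilium genes centre on 0.295, the fibroblast and mesothelial list on 0.882, and the alveolar, endothelial and leukocyte lists above 1. Other pairs of libraries are not drawn.

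The amount of member RNA relative to 1 marker of club cells, which line the same airways, varied between libraries. For every 1000 counts of Scgb1a1, the main club cell product, there were 77.6, 65.4 and 47.1 member counts in OTUB1_KD and 37.5, 45.0 and 61.0 in SFD@M. The ranges overlapped, with OTUB1_KD 1 highest and SFD@M 1 lowest. With Tppp3 left out the values were 65.4, 51.3 and 26.5 in OTUB1_KD and 29.8, 34.8 and 49.9 in SFD@M. OTUB1_KD 1 was then still highest, but OTUB1_KD 3 was lowest. These orders hold for Scgb1a1 only, since the club cell markers did not move alike. The CPM of OTUB1_KD 3 over OTUB1_KD 2 was 0.586 for Scgb1a1, 0.319 for Scgb3a2 and 0.0188 for Scgb3a1. It was 0.790 for Cyp2f2 and 0.644 for Aldh1a1. Y-linked genes, abundant in NC and Blank, summed to 36.9%, 0.184% and 7.08% of their NC mean in OTUB1_KD 1, 2 and 3 and to 0.476% or less in SFD@M. OTUB1_KD 1, with the most Y-linked RNA of the 6, had a members' sum of 862 CPM, and OTUB1_KD 2, with little, had 1850 CPM. OTUB1_KD 3, at 7.08%, had the lowest members' sum, 781 CPM. What the Y-linked RNA stands for in the members' levels was not tested.

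A few members were not silent in the control tumours. By mean, 11 members reached 1 CPM in NC or Blank: Rfx2, Rfx3, Dnai2, Dnah2, Dnah6, Dnah7b, Ccdc39, Cfap43, Tekt2, Cfap126 and Tppp3. Per length, Rfx2 led in both, with 5.81 ± 0.517 TPM in NC and 4.85 ± 0.326 in Blank. The order that followed was Cfap126, Rfx3 and Tppp3 in NC, at 5.41 ± 1.05, 3.02 ± 0.159 and 2.60 ± 0.778 TPM, and Rfx3, Cfap126 and Tppp3 in Blank, at 3.07 ± 0.0656, 3.01 ± 0.864 and 2.77 ± 0.478. Neighbours in each order lay within their spread of each other, apart from Cfap126 and Rfx3 in NC and Rfx2 and Rfx3 in Blank.

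**Figure D4:**
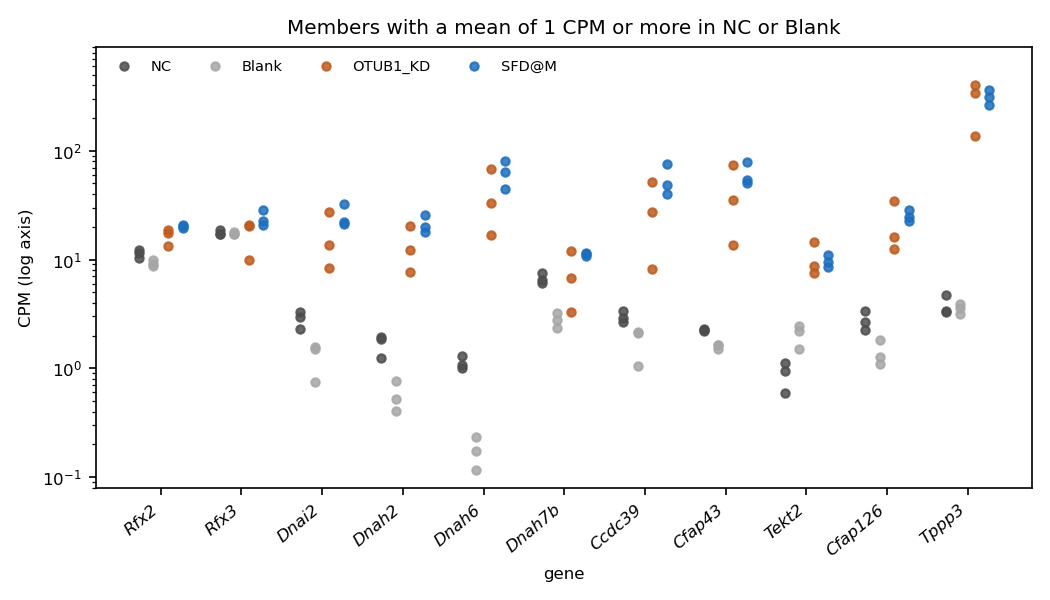
CPM (vertical, log axis) of the 11 members with a mean of 1 CPM or more in NC or Blank, with 1 point per library and a colour per group. Rfx2 and Rfx3 lie close together in all 4 groups, the control points of Dnah6 and Dnah2 are lower in Blank than in NC, and Tekt2 is the gene whose Blank points lie above NC.

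NC and Blank also belong to different experiments, and group and experiment cannot be told apart between them. Of the 12 members with enough counts to test 9 were called lower in Blank and 1 higher, against 37.2% and 37% of 12087 genes. Dnah6 was lower by -2.64 ± 0.42 (adjusted p = 4.42e-08), Dnah2 by -1.58 ± 0.29 (adjusted p = 1.84e-06), Dnah7b by -1.26 ± 0.14 (adjusted p = 1.36e-12) and Dnai2 by -1.15 ± 0.22 (adjusted p = 2.46e-06). Ccdc40, Cfap126, Ccdc39, Cfap43 and Rfx2 were lower by smaller amounts, from -1.01 ± 0.38 to -0.30 ± 0.10. Tekt2 was the exception, higher in Blank by 1.21 ± 0.25 (adjusted p = 1.89e-05). Rfx3 and Tppp3 did not pass, at -0.02 ± 0.07 and -0.10 ± 0.16. Among alternatives the number called lower ran from 3, when all 12 libraries shared 1 fit, to 13, when low counts were not filtered. Ccdc40 and Cfap43 lost their calls with DESeq2 (adjusted p = 0.0807 and 0.112) and without single libraries: Ccdc40 without Blank 1, Blank 2 or NC 2, and Cfap43 without Blank 1, NC 2 or NC 3.

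The change of a member could be set against its change in the other experiment. The difference, SFD@M minus Blank less OTUB1_KD minus NC, was called higher for 5 of the 42 members and lower for none, against 12.4% and 10.8% of 15304 genes. They were Dnah6 at 3.40 ± 0.86 (adjusted p = 0.0185), Dnah2 at 2.31 ± 0.51 (adjusted p = 0.0109), Dnah7b at 1.93 ± 0.49 (adjusted p = 0.0189), Dnai2 at 1.85 ± 0.57 (adjusted p = 0.0378) and Rfx2 at 0.66 ± 0.21 (adjusted p = 0.0436). All 5 were among the members called lower in Blank than in NC, and a lower Blank adds to this difference by construction. None of the 5 was called between SFD@M and OTUB1_KD, where the fit detected only 15.15% of 2-fold changes planted in simulated data. For 5 members with no count in either control group, Dnah3, Dnah5, Spag6l, Tekt1 and Sntn, this difference could not be estimated. Leaving out 1 library gave 2 to 12 such members: 12 without OTUB1_KD 2, 2 without Blank 2, 4 without OTUB1_KD 1, 5 without OTUB1_KD 3 and 3 without any other single library. Dnah2 was called in all 12 of these fits, but not by limma on log2(TPM + 1) (adjusted p = 0.105). Dnah6 lost its call without Blank 2, and Dnah7b without Blank 3. Dnai2 kept its call only without OTUB1_KD 2 or OTUB1_KD 3. Rfx2 kept its call only without OTUB1_KD 1, OTUB1_KD 2 or OTUB1_KD 3. With libraries scaled by total counts 3 members were called, Dnah2, Dnah6 and Dnah7b.

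Estimated counts of single transcripts showed that some control counts came from other transcript models than those of the high libraries. For Cfap43, XM_017318032 had 0 counts in all 6 NC and Blank libraries and 373, 906 and 124 in OTUB1_KD and 543, 557 and 860 in SFD@M. NM_027559 held 96.9% to 100% of the control counts of Cfap43 and 22.0% to 49.2% in the other libraries. Nearly all control reads thus lay on 1 model, and the leading model of the high libraries was empty there. For Dnah2, XM_030246092 was likewise at 0 in the controls and made up 40.5% to 78.8% of the gene elsewhere.

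For Tppp3 the order of its 2 models turned over. XM_006531324 held 81.2% to 90.6% of its counts in NC and Blank, and NM_026481 held 84.1% to 94.3% in OTUB1_KD and SFD@M. For Dnai2, XM_006533663 held 64.5% of the pooled control counts and NM_001034878 89.0% of the others, though the control counts are few, between 4.83 and 38.9 per library for the former. The split of reads between overlapping models is an estimate made by the authors' program, and no test was made on it.

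**Figure D5:**
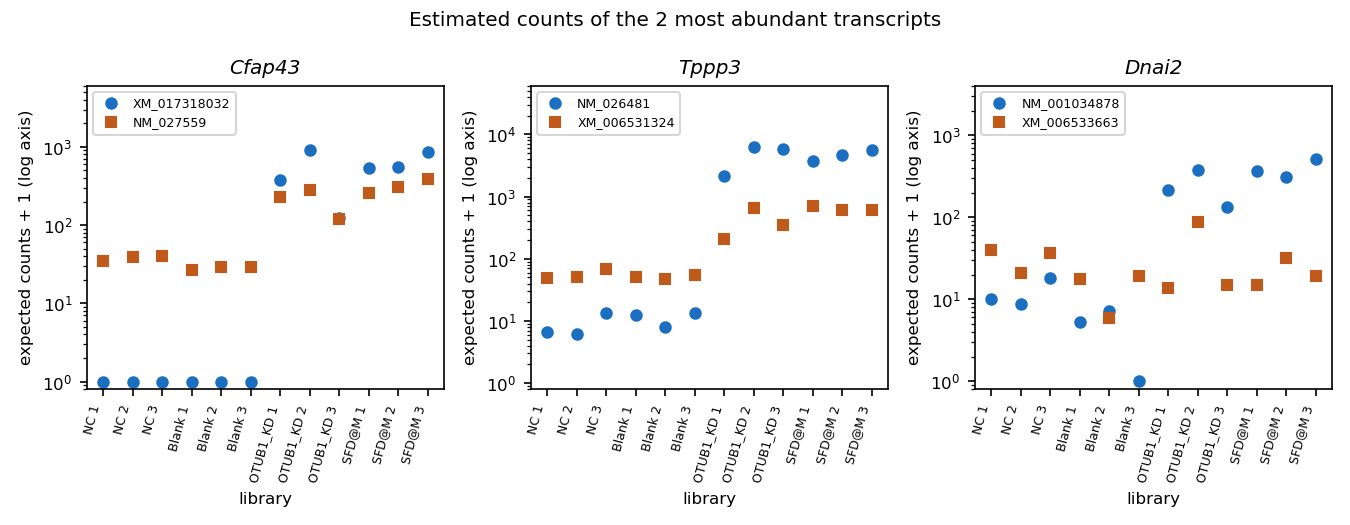
Estimated counts plus 1 (vertical, log axis) of the most abundant transcript models of Cfap43, Tppp3 and Dnai2 in the 12 libraries (horizontal). For each gene the model that leads in the 6 OTUB1_KD and SFD@M libraries, drawn as circles, is at 0 or below the other model in most NC and Blank libraries.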

How the data were processed

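Poly(A) RNA of 12 libraries in 4 groups was sequenced, and group and replicate were taken from the labels. Expected counts (estimated reads per transcript) and TPM were deposited by the authors for 70659 transcripts, made on GRCm39, with RSEM 1.3.1, Bowtie2 and DESeq2 1.4.5 listed as tools (per the submitters' processing notes, which give no roles). FPKM values deposited by the authors were not used. The normalized-count signal deposited by the authors gave whole reads for 100% of values within a tolerance of 0.001, and those reads served as an alternative chosen after the data were seen.

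Expected counts were summed over the transcripts of each gene identifier and rounded, which gave 19212 genes, and 19155 of them were named through the RefSeq table of GRCm38.p6. The other 57 made up no more than 0.342% of any library. Levels are CPM of the library total, with 3 counts taken as the floor. Each comparison was fitted on its own groups over all genes with edgeR 4.0.16 in R 4.3.3 (filterByExpr, TMM factors, robust quasi-likelihood test, Benjamini-Hochberg adjustment, threshold 0.05). The difference between experiments was fitted on all 12 libraries. The standard error is the log2 difference divided by the square root of F. Ratios against 1 to 3 counts carry exact 95% intervals that cover counting error only.

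The 42 members and all gene lists were chosen with earlier results of these data known. All members are reported. Values in every library are given for the member with the highest summed TPM in each role, for those with a mean of 1 CPM or more in NC or Blank, and for those called in the difference between experiments. Other values, among them Dnah5 and Mcidas, are additions. From other lists at most 4 genes were to be named by smallest p; Sec14l3, Gmnc, Myb, Trp73, Deup1 and Dnajb13 were named after their values were seen. Genes at 0 in a whole group have no estimable fold change, so a bound is given. Reads are not stated to be counted by strand. Alternatives were DESeq2 1.42.0, limma 3.58.1, other scalings and filters, a replicate block and the omission of each library. The fits were tested on simulated data with planted changes. False calls were 11 of 106 in OTUB1_KD against NC and 15 of 194 in SFD@M against Blank. They were 13 of 110 in SFD@M against OTUB1_KD and 10 of 207 in Blank against NC.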

Additional observations from a re-analysis of the deposited data

Results flagged for a closer look

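In 5 members the change in the treatment experiment differed from the change in the knockdown experiment by the test of that difference (edgeR quasi-likelihood test, Benjamini-Hochberg adjusted p over 15304 genes). That is 5 of 42 members, beside 12.4% of all genes tested in the same direction, so the count itself is near the background. The log2 values were 2.31 for Dnah2 (adjusted p = 0.0109), 3.40 for Dnah6 (adjusted p = 0.0185), 1.93 for Dnah7b (adjusted p = 0.0189), 1.85 for Dnai2 (adjusted p = 0.0378) and 0.66 for Rfx2 (adjusted p = 0.0436). In each, all SFD@M libraries lay above all Blank libraries, but this held for all 42 members. Blank was called lower than NC in each, and a lower Blank adds to this difference by construction. The calls of Dnai2 and Rfx2 were lost when any NC, Blank or SFD@M library was left out. The counts of Dnah7b are shared in part with near-identical copies.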

How the results depend on the processing

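The number of members called higher stayed between 38 and 40 in OTUB1_KD against NC and between 40 and 42 in SFD@M against Blank under every alternative, and none was called lower in either. Reads recovered from the normalized values gave 39 and 41. Leaving out 1 library at a time gave 39 to 40 and 40 to 41. In SFD@M against OTUB1_KD 1 member was called lower when all 12 libraries shared a fit, Mcidas at -1.53 (adjusted p = 0.0399), and 0 to 1 were called higher when 1 library was left out. In Blank against NC 3 were called lower with all 12 libraries, 13 with no filter and 8 to 10 without 1 library, against 9. The difference between experiments was called higher in 3 members with total counts, in 3 with no filter, in 8 with DESeq2, in 2 with limma-voom, in 2 with log2(TPM + 1), and in 2 to 12 when 1 library was left out. It was called lower in 1 with DESeq2, in 1 with log2(TPM + 0.1), and in 0 to 1 when 1 library was left out. The cause was not tested.

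Some small differences changed sign. Without 1 library, Rfx3 in OTUB1_KD against NC ran from -0.31 to 0.14, Dnah7b there from -0.49 to 0.40, Tppp3 in SFD@M against OTUB1_KD from -0.24 (without OTUB1_KD 1) to 0.35, Rfx3 in Blank against NC from -0.046 to 0.027 and Tppp3 there from -0.20 to 0.087. Dnah7b in OTUB1_KD against NC became -0.12 with limma-voom and -0.0027 with log2(TPM + 0.1). In Blank against NC, Rfx3 became 0.0052 with no filter, 0.017 with log2(TPM + 1) and 0.022 with log2(TPM + 0.1), and Tppp3 0.078 and 0.11 on those 2 TPM scales. None of these passed the threshold. The call of Rfx3 in SFD@M against Blank was lost with log2(TPM + 1) (adjusted p = 0.339), log2(TPM + 0.1) (adjusted p = 0.363) and all 12 libraries (adjusted p = 0.105).

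In the labels same-numbered libraries of different groups share only a number, with no word on whether they were processed together. The correlation of their deviations ran from -0.256 to 0.0411, and not every library correlated best with its own number. With the replicate number as a block the difference between experiments was called higher in 3 members, and Dnah7b in OTUB1_KD against NC became -0.095.

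Control counts limit what can be said of 13 members in NC and 19 in Blank, which had 3 counts or fewer over the group.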
